A study of Homo sapiens with 12 samples.

Results

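The mRNAs of 10 nuclear proteins that shape chromatin and the nuclear edge were followed in WI-38 fibroblasts, a diploid human line from fetal lung with a limited lifespan. They were chosen by name and not by a cutoff on level, but with earlier results of these data known. They comprise the 3 lamin genes LMNB1, LMNB2 and LMNA and the lamin-binding inner membrane genes LBR, TMPO and EMD. The rest are the high mobility group (HMG) genes HMGB1, HMGB2, HMGA1 and HMGA2. All 10 were among the 57773 genes of the files, and all 10 had enough counts to enter the 21518 genes that were tested. Bulk RNA was sequenced in 4 groups of 3 libraries. Proliferating cells received a control pool of siRNAs (siCtrl) and spent 8 days in the vehicle DMSO. The other cells spent 8 days in 50 µM etoposide, a topoisomerase poison that breaks DNA and drives cells into senescence, and received siCtrl, a pool against NTRK2, the mRNA of the receptor TrkB (siNTRK2), or a pool against BDNF, the mRNA of its ligand (siBDNF). Each siRNA pool was used at 25 nM. Every library thus came from the same line and every cell was transfected, no siRNA against NTRK2 or BDNF was tested in proliferating cells, and the labels do not say whether the 3 libraries of a group were separate cultures. The study states in general that its cell experiments were repeated independently, without naming these libraries, so the p-values measure the spread between libraries, which may be technical.

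The nuclear lamina is a meshwork of lamin filaments under the inner nuclear membrane. B-type lamins stay attached to the membrane, A-type lamins also occur inside the nucleus, and membrane proteins such as the lamin B receptor (LBR), lamina-associated polypeptide 2 (from TMPO) and emerin (from EMD) tie heterochromatin to this layer. HMG proteins bend or bind DNA without recognising long sequences. HMGB1 and HMGB2 are chromatin proteins, and HMGB1 can also leave the nucleus and act as an alarm signal. HMGA1 and HMGA2 bind AT-rich DNA and are structural parts of the heterochromatin foci seen in some senescent fibroblasts. Loss of lamin B1 is a widely used marker of senescence.

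The libraries held between 31567912 and 72328151 counts, replicates differed by more than counting error (chi-square of 3.92 to 13.6 per gene), and levels are given below as normalized CPM, that is, CPM after scaling of the libraries by edgeR's TMM method. The siRNA targets followed the labels, with 0 NTRK2 counts in each siNTRK2 library against 7, 15 and 10 in the siCtrl senescent libraries, and BDNF mRNA fell by 71.0% with siBDNF. The labelled cell type was checked with marker genes. The 9 fibroblast markers summed to between 32530 and 45390 normalized CPM, against 84.3 to 141 for 6 epithelial markers. The 3 tested of 5 endothelial markers summed to 24.5 to 78.0 and the 3 tested of 6 blood markers to 0.157 to 2.07. Of 10 senescence genes, 9 rose and 1 fell in siCtrl senescent cells relative to proliferating cells. The gene that fell, IL6, was singled out after its values were seen, and went from 7.96 to 6.71 normalized CPM. Of 15 proliferation genes 14 fell. That list summed to 692 to 701 normalized CPM in proliferating and 203 to 206 in siCtrl senescent libraries. Of the epithelial markers 4 of 6 rose with senescence, from a sum of 84.3 to 91.3 normalized CPM to one of 117 to 141, and the 3 tested blood markers rose, from a sum of 0.157 to 0.215 to one of 1.58 to 1.77, with PTPRC and LYZ at 0 in proliferating libraries. Of the 3 tested endothelial markers 2 rose from low levels, KDR by 1.89 and VWF by 1.205 on the log2 scale. TEK changed by -1.20, from 75.5 to 32.8 normalized CPM. It made up most of their sum, which went from 75.2 to 78.0 to one of 34.2 to 36.1. Of the fibroblast markers 6 of 9 fell and 2 rose, led by PDGFRB at -1.30 and COL3A1 at -1.13. The part of these markers in the results was not tested. In bulk RNA, fewer cells with an mRNA and less of that mRNA per cell cannot be told apart. The study reports that fewer senescent cells survived when TrkB or BDNF was silenced, and more clearly so late in senescence than early. The siNTRK2 and siBDNF libraries may thus hold RNA of the cells that survived. Whether this loss of cells had a part in the changes with either siRNA was not tested.

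In senescent cells with siCtrl, 8 of the 10 mRNAs were lower than in proliferating cells and 2, HMGA1 and HMGA2, were higher. LMNB1 fell most and LMNA and EMD least among the 8. A gene was called at an adjusted p under 0.05 in edgeR's quasi-likelihood test, and in this comparison 28.3% of all tested genes were called lower and 29.8% higher. With the added requirement of an absolute log2 fold change over 1, LMNB1, HMGB2, TMPO, LBR, HMGB1 and LMNB2 remained, 6 of 10, where 5.16% of all genes were lower by that measure. The median log2 fold change was -1.35 over the 10 genes and 0.02 over all tested genes. The 3 senescent and 3 proliferating libraries did not overlap for any of the 10 genes, as for 61.3% of all tested genes.

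**Figure D1:**
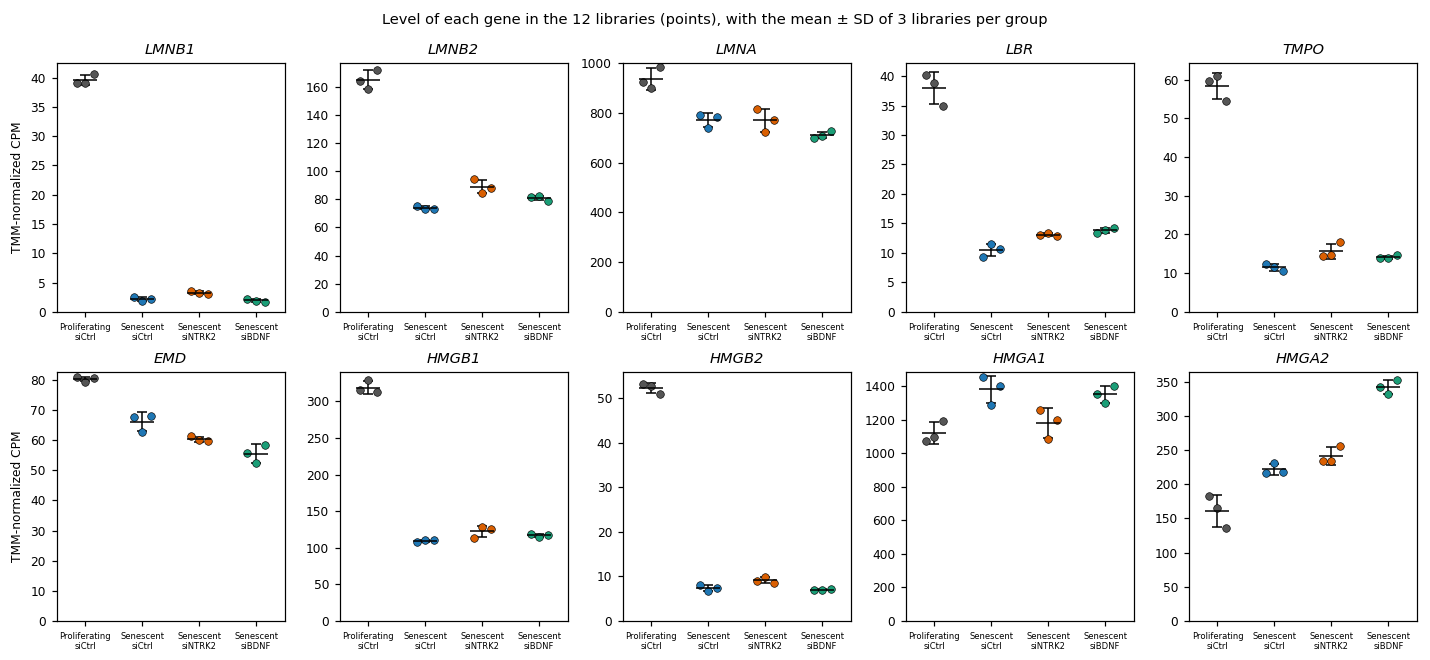
Each panel plots 1 gene, with normalized CPM on a linear axis from 0, a point for each of the 12 libraries, and the mean with its SD of 3 libraries per group. LMNB1 lay between 39.1 and 40.5 normalized CPM in proliferating cells and between 1.75 and 3.60 in the 9 senescent libraries, and HMGA2 was highest in the siBDNF libraries.

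Among the lamins, the B types fell and the A type hardly moved. LMNB1 (ENSG00000113368, GRCh37 chromosome 5, 126112315 to 126172712, plus strand), which encodes lamin B1, stood at 39.1, 39.1 and 40.5 normalized CPM in the proliferating libraries and at 2.46, 1.81 and 2.18 in the senescent ones. The senescent libraries were all far below the proliferating ones, and the mRNA fell by 94.6%, or 18.4-fold (log2 fold change -4.20 ± 0.10 SE, edgeR adjusted p = 7.42e-21). The senescent levels rest on 138, 105 and 126 counts, so this low end is less precise than the others. LMNB2 (ENSG00000176619, chromosome 19, 2427636 to 2456957, minus strand), the gene of lamin B2, had 164, 158 and 172 normalized CPM in proliferating and 75.4, 73.3 and 73.2 in senescent libraries. Its mRNA was thus 2.23-fold lower in senescent cells, with tight values on each side (log2 fold change -1.16 ± 0.05, edgeR adjusted p = 2.68e-16). LMNA (ENSG00000160789, chromosome 1, 156052364 to 156109872, plus strand), which encodes lamins A and C by splicing, measured 925, 900 and 987 normalized CPM in proliferating and 793, 739 and 783 in senescent libraries. The groups did not overlap, but the mRNA fell by only 17.7% (log2 fold change -0.28 ± 0.05, edgeR adjusted p = 1.71e-05). Counts per gene do not separate the A and C transcripts.

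The balance between the lamin mRNAs within a library needs no library size. The log2 ratio of LMNB1 to LMNA counts averaged -4.56 ± 0.04 (SD, n = 3) in proliferating and -8.50 ± 0.17 in siCtrl senescent libraries. The difference of -3.93 separated the groups completely, yet an exact two-sided permutation test of 3 against 3 libraries cannot give a p below 0.1, which it gave here (0.133 after adjustment over the 12 ratio comparisons).

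The membrane partners of the lamins split in the same comparison. TMPO (ENSG00000120802, chromosome 12, 98909357 to 98944129, plus strand) had 59.7, 60.9 and 54.5 normalized CPM in proliferating and 12.4, 11.6 and 10.5 in senescent libraries. All 3 senescent values were low and close together, 5.08-fold under the proliferating mean (log2 fold change -2.35 ± 0.08, edgeR adjusted p = 3.76e-18). An antisense RNA, TMPO-AS1, covers 7.60% of the exon bases of TMPO and changed by -2.41 on the log2 scale. The libraries were made with a stranded kit, but the sources used here do not state whether reads were counted by strand. Reads in the shared bases thus cannot be assigned to either gene with certainty. LBR (ENSG00000143815, chromosome 1, 225589204 to 225616627, minus strand), whose product binds lamin B and heterochromatin and is also a sterol reductase, had 40.1, 38.8 and 34.9 normalized CPM in proliferating and 9.37, 11.5 and 10.7 in senescent libraries. This was a 3.61-fold drop without overlap (log2 fold change -1.85 ± 0.08, edgeR adjusted p = 1.66e-16). EMD (ENSG00000102119, chromosome X, 153607633 to 153609934, plus strand), the gene of emerin, measured 80.9, 79.4 and 80.6 in proliferating and 67.7, 62.6 and 68.1 normalized CPM in senescent libraries, and fell by 17.6% (log2 fold change -0.28 ± 0.05, edgeR adjusted p = 4.29e-05).

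The HMGB mRNAs fell and the HMGA mRNAs rose. HMGB2 (ENSG00000164104, chromosome 4, 174252527 to 174255583, minus strand), a DNA-bending protein, had 53.2, 52.8 and 51.0 normalized CPM in proliferating and 7.98, 6.77 and 7.36 in senescent libraries. The senescent level was 7.11-fold lower, second only to LMNB1 in size among the 10 genes (log2 fold change -2.83 ± 0.07, edgeR adjusted p = 2.37e-20). HMGB1 (ENSG00000189403, chromosome 13, 31030841 to 31191734, minus strand) had 315.5, 329 and 312 in proliferating and 108, 110.2 and 110.1 normalized CPM in senescent libraries, with all senescent values within a narrow band 2.92-fold lower (log2 fold change -1.55 ± 0.05, edgeR adjusted p = 4.96e-19). HMGB1 has many processed pseudogenes, near-copies of its mRNA in the genome. The files list 47 of them, 30 with a count, and their 67290 counts make up 37.8% of the sum with the 110889 counts of HMGB1. The largest, HMGB1P5 and HMGB1P6, changed by -1.49 and -1.48 on the log2 scale, and adding all pseudogene counts to HMGB1 gave -1.51. How reads that match several places were counted is not given in the sources used here.

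The log2 ratio of HMGB2 to HMGB1 counts moved from -2.61 ± 0.04 (SD, n = 3) in proliferating to -3.89 ± 0.14 in senescent libraries, so that the 2 HMGB mRNAs fell by unequal amounts. The difference of -1.29 separated the groups, with the smallest p the exact permutation test allows (p = 0.1).

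HMGA2 (ENSG00000149948, chromosome 12, 66218240 to 66360071, plus strand) had 183, 165 and 137 normalized CPM in proliferating and 216.5, 231 and 218 in senescent libraries. The proliferating libraries were spread more widely than the senescent ones but stayed below them, and the senescent mean was 1.37-fold higher (log2 fold change 0.46 ± 0.07, edgeR adjusted p = 2.42e-06). The antisense RNA HMGA2-AS1, which covers 2.55% of the exon bases of HMGA2, went from 0.337 to 1.88 normalized CPM, a level far under that of HMGA2. HMGA1 (ENSG00000137309, chromosome 6, 34204650 to 34214008, plus strand) had 1072, 1098 and 1194 in proliferating and 1453, 1290 and 1398 normalized CPM in senescent libraries. Its rise of 23.1% was smaller than that of HMGA2 in size (log2 fold change 0.30 ± 0.05, edgeR adjusted p = 3.78e-05), but the log2 ratio of HMGA2 to HMGA1 counts did not separate the groups, at -2.81 ± 0.29 (SD, n = 3) in proliferating and -2.64 ± 0.14 in senescent libraries (exact permutation p = 0.5).

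Levels between genes were compared per kilobase of exon. In proliferating cells the order ran from HMGA1 (482 normalized CPM per kb) through LMNA (115), HMGB1 (41.4), EMD (40.2), LMNB2 (30.6), HMGB2 (21.8), LMNB1 (10.9), HMGA2 (10.7) and TMPO (6.87) to LBR (6.64). LMNB1 and HMGA2 overlapped in their ranges over the 3 libraries, as did TMPO and LBR, and the other neighbours did not. In siCtrl senescent cells LMNB1 moved to the bottom of the order at 0.592 normalized CPM per kb and HMGA2 rose to the fourth place at 14.7, above HMGB1 at 14.2 and LMNB2 at 13.7. No neighbours overlapped there, but the gaps among these 3 genes were narrow. The lowest HMGA2 library was at 14.36 and the highest HMGB1 library at 14.32. The lowest HMGB1 library was at 13.98 and the highest LMNB2 library at 13.97. HMGB1 was placed in each group without the counts of its pseudogenes, and its place with them was not tested. LMNB1 stayed last and HMGA1 and LMNA stayed first and second in both knockdown groups. With siNTRK2, LMNB2, HMGA2 and HMGB1 formed a run of overlapping neighbours at 16.5, 16.01 and 15.9 normalized CPM per kb, and with siBDNF HMGA2 stood apart at 22.7 while HMGB1 and LMNB2 overlapped at 15.2 and 15.02. The exon length is that of all annotated exons joined, which for a gene with a long untranslated end lowers the level per kb.

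**Figure D2:**
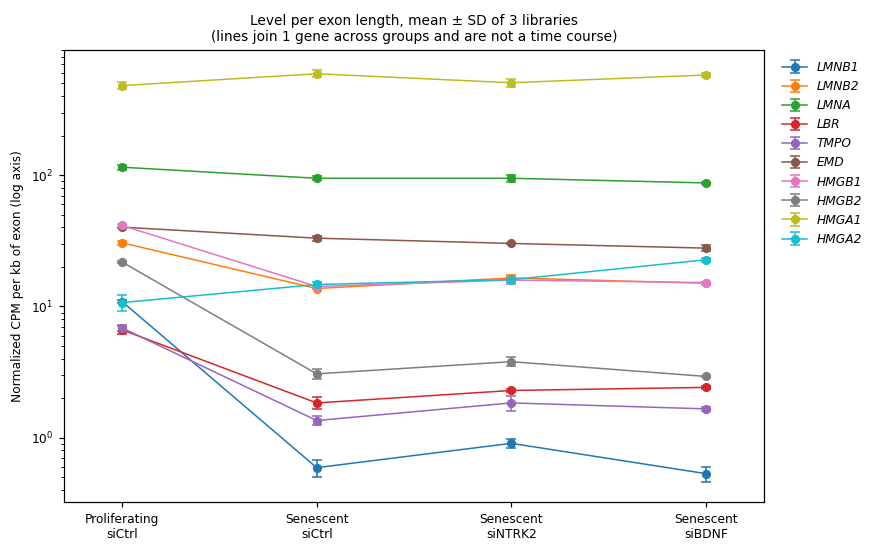
Mean normalized CPM per kb of exon on a log axis for each of the 10 genes in the 4 groups, with the SD of 3 libraries; lines join the groups of 1 gene and are not a time course. LMNB1 crosses from the middle of the order to 0.592 in siCtrl senescent cells, while HMGA1 and LMNA stay at the top in all 4 groups.

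The promoters of genes that fell together are shown to let their letters be compared. RefSeq windows of the 250 bases before a start site (GRCh38.p14) were at hand for 8 of the 10 genes, not for HMGB2 and HMGA2, in 15 windows. They were searched on both strands for the CCAAT box (CCAAT), the cell cycle homology region (TTTGAA) and E2F sites (TTTGGCGC, TTTCCCGC, TTTCGCGC or TTTGCCGC), letters found before many genes of dividing cells. CCAAT occurred in 8 of the 15 windows, from 6 genes (EMD, HMGA1, HMGB1, LMNA, LMNB1 and TMPO), against 32.0% of 35116 windows of all genes. TTTGAA occurred in 2 windows (HMGB1 and LMNB2; 13.3% of all) and an E2F site in 1 (LMNA; 2.79% of all), and no match overlapped another. Windows of 1 gene can overlap, as those of TMPO do, and a match is a description of the letters and not a bound site. In the windows below, of 3 genes that fell in senescent cells and were higher with siNTRK2, capitals mark CCAAT or, on the other strand, ATTGG. LMNB1 holds 1 match, which starts 138 bases before the start site, TMPO holds 2 at 64 and 32 bases, and HMGB1 holds 3 at 103, 59 and 28 bases.
LMNB1, chr5:126776886-126777135, plus strand: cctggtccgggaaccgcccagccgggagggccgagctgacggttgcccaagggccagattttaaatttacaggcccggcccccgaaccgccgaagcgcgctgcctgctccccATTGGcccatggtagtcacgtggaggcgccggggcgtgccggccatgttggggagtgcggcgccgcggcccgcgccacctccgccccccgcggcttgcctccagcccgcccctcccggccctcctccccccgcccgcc
TMPO, chr12:98515340-98515589, plus strand: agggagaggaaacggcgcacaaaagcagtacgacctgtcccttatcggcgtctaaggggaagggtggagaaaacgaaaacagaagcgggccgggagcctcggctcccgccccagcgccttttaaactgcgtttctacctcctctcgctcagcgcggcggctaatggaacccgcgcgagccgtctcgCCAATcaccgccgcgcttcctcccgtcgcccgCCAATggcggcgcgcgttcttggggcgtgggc
HMGB1, chr13:30465937-30466186, minus strand: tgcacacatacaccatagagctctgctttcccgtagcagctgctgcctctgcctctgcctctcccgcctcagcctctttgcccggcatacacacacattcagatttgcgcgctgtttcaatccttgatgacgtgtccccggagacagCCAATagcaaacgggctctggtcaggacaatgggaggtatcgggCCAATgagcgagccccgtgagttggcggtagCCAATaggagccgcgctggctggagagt
EMD, LMNA and HMGA1 also hold CCAAT and moved little or rose, and the window of LBR, which fell 3.61-fold, holds none of these letters. The window of LMNB2, which fell 2.23-fold and was higher with siNTRK2, holds no CCAAT. The windows printed were picked for their matches. Another window of LMNB1 (chr5:126776373-126776622) and another of HMGB1 (chr13:30617598-30617847) hold no match.

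Around the 10 genes, other parts of the same structures changed unevenly with senescence. Of 11 further genes of the lamina and inner nuclear membrane, 4 rose and 5 fell (median log2 fold change -0.03), led by NRM, which encodes nurim, at -1.26 and TMEM43, which encodes the membrane protein LUMA, at -0.71. BANF1, whose product links DNA to LEM-domain proteins such as emerin, changed by -0.54. Of the 5 tested genes of the LINC complex, which couples the nucleus to the cytoskeleton, 4 fell and 1 rose: SUN2 changed by -0.78, SYNE3 by -0.71 and SYNE1 by 0.38. Of 6 genes whose products process or bind prelamin A, 4 rose and 1 fell, with ICMT, a carboxyl methyltransferase, at 0.30 and the protease RCE1 at -0.49.

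The heterochromatin genes moved mostly one way. Of 14, 12 fell and 1 rose (median log2 fold change -0.60), led by the histone chaperone ASF1B at -2.30, the methyltransferase SUV39H2 at -1.18 and the histone variant MACROH2A2 at -1.13. Of the 12 tested genes among other HMG-box and HMGN genes, 10 fell and 1 rose (median -0.50). HMGN2, a nucleosome-binding protein, went from 331 to 122.5 normalized CPM (log2 fold change -1.43 ± 0.04, edgeR adjusted p = 7.27e-19), HMGB3 changed by -1.26 and SSRP1, a subunit of the FACT chaperone, by -1.16. Of 5 genes for receptors of extracellular HMGB1, 3 had enough counts to be tested and their levels were near the floor. These 3 summed to 2.06 to 2.82 normalized CPM in proliferating and 1.35 to 2.10 in siCtrl senescent libraries. Among those 3, 1 rose and 1 fell. AGER, the gene of the receptor RAGE, was lower in senescent cells (1.05 against 2.15 normalized CPM).

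In senescent cells with siNTRK2, 6 of the 10 mRNAs were higher than with siCtrl, LMNB1, TMPO, LBR, HMGB2, LMNB2 and HMGB1, and 1, HMGA1, was lower. In this comparison 11.1% of all tested genes were called higher and 10.0% lower. The median log2 fold change was 0.22 over the 10 genes and -0.002 over all tested genes, none of the 10 passed a log2 fold change of 1, and the groups did not overlap for 9 of the 10, against 32.8% of all tested genes. The siCtrl senescent libraries are shared with the comparison to proliferating cells, so a low control value moves a gene in both comparisons. NTRK2 itself had only 7, 15 and 10 counts in these siCtrl libraries. Each target was silenced with only 1 pool of siRNAs, and effects of a pool apart from its target were not tested. The log2 fold changes with senescence and with siNTRK2 were -4.20 and 0.62 for LMNB1, -2.83 and 0.31 for HMGB2, -2.35 and 0.45 for TMPO, and 0.30 and -0.23 for HMGA1.

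**Figure D3:**
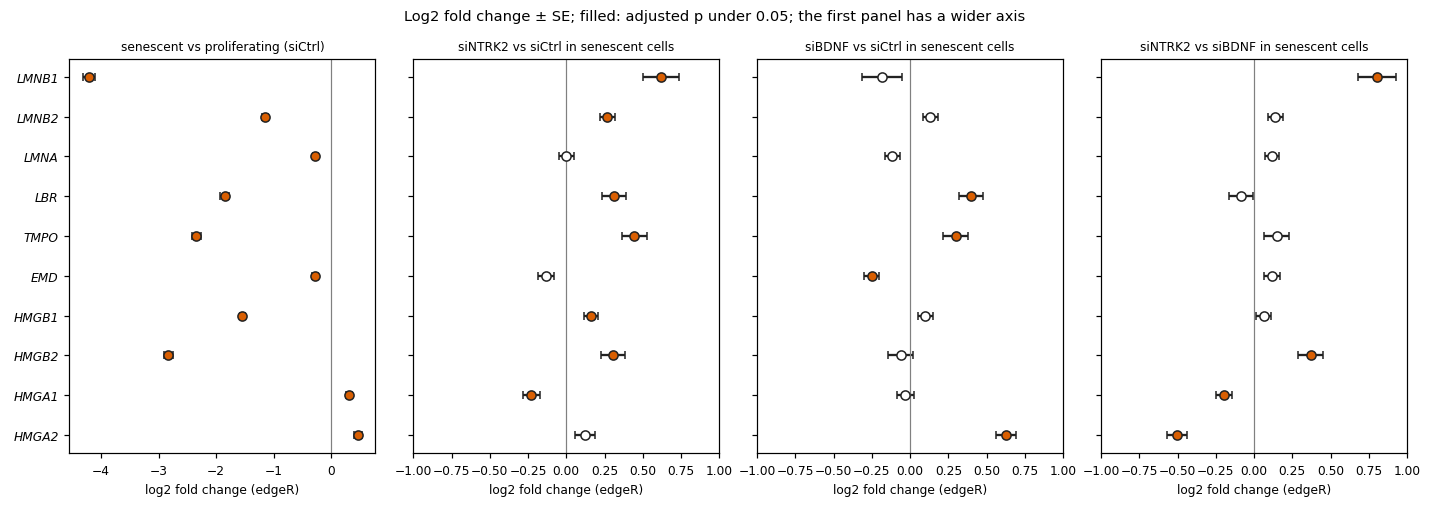
Log2 fold change with its SE from edgeR for the 10 genes in 4 comparisons, with a vertical line at 0 and filled points at an adjusted p under 0.05; the first panel has a wider axis. All 10 points are filled in the comparison of senescent with proliferating cells, 7 with siNTRK2, 4 with siBDNF and 4 between the siRNAs.

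LMNB1 had 3.60, 3.23 and 3.06 normalized CPM with siNTRK2, all above the siCtrl values of 2.46, 1.81 and 2.18. The mean was 1.54-fold higher (log2 fold change 0.62 ± 0.12, edgeR adjusted p = 4.50e-04), from 223, 160 and 164 counts, and remained far under the 39.6 of proliferating cells. TMPO had 14.4, 14.7 and 17.9 normalized CPM, with the third library above the other 2 and all 3 above siCtrl (log2 fold change 0.45 ± 0.08, edgeR adjusted p = 3.14e-04). LBR stood at 12.96, 13.4 and 12.9, close together and 1.24-fold above siCtrl (log2 fold change 0.31 ± 0.08, edgeR adjusted p = 0.00538). Without siCtrl replicate 1, whose LBR value was the lowest, the change was 0.24 and the adjusted p 0.0591, so that the call for LBR rests on that library.

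LMNB2 had 94.4, 84.7 and 88.2 normalized CPM with siNTRK2, above all siCtrl values, a rise of 20.5% (log2 fold change 0.27 ± 0.05, edgeR adjusted p = 2.51e-04). HMGB2 had 9.04, 9.86 and 8.47, a rise of 23.7% without overlap (log2 fold change 0.31 ± 0.08, edgeR adjusted p = 0.00627). HMGB1 had 114, 128 and 125, with the first library close to siCtrl (log2 fold change 0.16 ± 0.05, edgeR adjusted p = 0.0144). The call for HMGB1 was lost without siCtrl replicate 1 (edgeR adjusted p = 0.0700) and without siNTRK2 replicate 2 or 3 (0.0518 and 0.0731), while with pseudogene counts added the change was 0.21 (adjusted p = 0.00331). HMGB1P5, HMGB1P6 and HMGB1P10 rose by 0.25, 0.27 and 0.46 on the log2 scale.

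HMGA1 was the member called lower, going from 1453, 1290 and 1398 to 1257, 1084 and 1196 normalized CPM. It fell by 14.6%, with no overlap between the groups (log2 fold change -0.23 ± 0.05, edgeR adjusted p = 0.00337). Not called were EMD, at 61.3, 59.9 and 59.8 normalized CPM (log2 fold change -0.13, edgeR adjusted p = 0.0662), HMGA2, at 234.1, 233.5 and 256 (0.12, 0.214), and LMNA, at 817, 724 and 774 (0.0005, 0.997). LMNA overlapped siCtrl, and EMD and HMGA2 did not. Without siCtrl replicate 2, EMD was called lower (log2 fold change -0.16, edgeR adjusted p = 0.0336). The same call was made by DESeq2 (Wald test, adjusted p = 0.0390). It was also made with at least 10 counts in every library (edgeR adjusted p = 0.0478). The log2 ratio of LMNB1 to LMNA counts was -7.87 ± 0.10 (SD, n = 3) against -8.50 ± 0.17 with siCtrl, a difference of 0.62 without overlap (exact permutation p = 0.1, the smallest possible), and that of HMGA2 to HMGA1 was -2.29 ± 0.12 against -2.64 ± 0.14, a difference of 0.35 (p = 0.1). The ratio of HMGB2 to HMGB1 differed by 0.15 with overlap (exact permutation p = 0.2).

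Proliferation genes also changed in this comparison. With siNTRK2, 10 of 15 proliferation genes rose and 1 fell against siCtrl (median log2 fold change 0.55), and the list summed to 220 to 236 normalized CPM against 203 to 206 with siCtrl and 692 to 701 in proliferating cells. MKI67, the gene of the Ki-67 antigen, went from 1.28 to 4.19 normalized CPM and TOP2A, a topoisomerase, from 11.3 to 24.3. PCNA, a replication clamp, was singled out after its values were seen as the gene of that list that fell, from 95.3 to 77.6 normalized CPM. Of 10 senescence genes, 4 rose and 6 fell, among them CXCL8, which encodes an inflammatory chemokine, at -1.52 on the log2 scale. Of the fibroblast markers 6 of 9 rose and 1 fell. The part of any of these in the changes of the 10 genes was not tested.

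With siNTRK2, of the 11 other lamina and membrane genes 1 rose, TMEM43 at 0.19 on the log2 scale, and of the 5 LINC genes 1 rose, SYNE1, the gene of nesprin-1, from 31.6 to 51.5 normalized CPM (log2 fold change 0.70 ± 0.06, edgeR adjusted p = 1.95e-08). Of 6 processing genes 2 fell, ICMT by 0.22 and ZMPSTE24, the protease that trims prelamin A, by 0.20 on the log2 scale. Of 14 heterochromatin genes 4 rose, with UBN1, a subunit of the HIRA chaperone complex, at 0.31, and of 12 other HMG genes 1 rose and 1 fell, HMGN3 at 0.30 and HMG20B at -0.39.

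In senescent cells with siBDNF, 4 of the 10 mRNAs differed from siCtrl. HMGA2, LBR and TMPO rose and EMD fell, where 10.3% of all tested genes were called higher and 10.2% lower. The median log2 fold change was 0.03 over the 10 genes and 0.004 over all tested genes, and the groups did not overlap for 7 of the 10, against 37.3% of all tested genes. The shares of calls depend on the scaling: with library totals in place of TMM, 14.6% of all genes were called higher and 6.45% lower with siBDNF. The siCtrl libraries are the same as in the comparison with siNTRK2.

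HMGA2 had 341, 332 and 353 normalized CPM with siBDNF, against 216.5, 231 and 218 with siCtrl. The siBDNF libraries were the highest of all 12 for this gene, 1.54-fold above siCtrl (log2 fold change 0.63 ± 0.07, edgeR adjusted p = 2.36e-07). HMGA2-AS1 changed by 0.10 (edgeR adjusted p = 0.806), and HMGA1 was at 1352, 1300 and 1400 normalized CPM, overlapping siCtrl (log2 fold change -0.03, edgeR adjusted p = 0.766). The log2 ratio of HMGA2 to HMGA1 was -1.98 ± 0.01 (SD, n = 3), 0.66 above siCtrl without overlap (exact permutation p = 0.1, the smallest possible). LBR had 13.4, 13.8 and 14.3 normalized CPM, above all siCtrl values (log2 fold change 0.40 ± 0.08, edgeR adjusted p = 6.85e-04), and TMPO had 13.8, 13.9 and 14.6 (0.30 ± 0.08, 0.0117). The call for TMPO was lost without siCtrl replicate 3 or siBDNF replicate 3 (adjusted p = 0.0873 and 0.0644). EMD had 55.9, 52.3 and 58.5 normalized CPM, below every siCtrl library, and fell by 16.02% (log2 fold change -0.25 ± 0.05, edgeR adjusted p = 8.61e-04).

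The other 6 did not pass the test with siBDNF. LMNB1 had 2.23, 1.83 and 1.75 normalized CPM, within or just under the siCtrl range (log2 fold change -0.18 ± 0.13, edgeR adjusted p = 0.375), from 73, 124 and 120 counts. HMGB2 had 6.93, 7.03 and 7.16 (-0.06 ± 0.08, adjusted p = 0.674). LMNB2 had 81.6, 82.3 and 79.1, LMNA 699.8, 709 and 726 and HMGB1 119, 115 and 118 normalized CPM, all without overlap with siCtrl, at log2 fold changes of 0.13, -0.12 and 0.10 (edgeR adjusted p = 0.0611, 0.0862 and 0.150). With pseudogene counts added, HMGB1 changed by 0.05 (adjusted p = 0.585). LMNB2 was called higher under 4 other settings, among them DESeq2 (adjusted p = 0.0449). Without siCtrl replicate 2, LMNA was called lower (log2 fold change -0.14, edgeR adjusted p = 0.0367). The log2 ratio of LMNB1 to LMNA differed by -0.03 from siCtrl (exact permutation p = 0.9), and that of HMGB2 to HMGB1 differed by -0.16 (p = 0.1). Of the proliferation genes 1 of 15 rose, MKI67 from 1.28 to 2.35 normalized CPM, and 1 fell, RRM2, a subunit of ribonucleotide reductase, from 12.5 to 9.05, and the list summed to 194 to 203 normalized CPM. Of the 10 senescence genes 4 rose, led by the cell cycle inhibitor CDKN2B at 0.89 and the protease MMP3 at 0.87 on the log2 scale, and of the 9 fibroblast markers 2 rose and 5 fell, with DCN at -0.64 and THY1 at -0.54. The endothelial marker TEK changed by -0.53. The part of any of these in the changes of the 10 genes was not tested.

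Among the neighbouring genes, 3 of 5 LINC genes rose with siBDNF: SYNE1 from 31.6 to 46.7 normalized CPM (log2 fold change 0.56 ± 0.07, edgeR adjusted p = 8.30e-07), SUN2 by 0.27 and SYNE2 by 0.38 on the log2 scale. NEMP1 rose by 0.34 and BANF1 fell by 0.27 among the 11 lamina and membrane genes, and of the 6 processing genes ICMT fell by 0.19 and FNTA, a farnesyltransferase subunit, rose by 0.15. Of 14 heterochromatin genes 2 rose and 2 fell, with ASF1B changing by -0.54, UBN1 by 0.34 and MACROH2A2 by -0.26. Of 12 other HMG genes 2 rose and 1 fell, TFAM, a mitochondrial DNA-binding protein, changing by 0.34.

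A direct comparison of siNTRK2 with siBDNF, which does not use the siCtrl libraries as a group mean, separated 4 of the 10 mRNAs. LMNB1 and HMGB2 were higher with siNTRK2 and HMGA2 and HMGA1 were lower, where 8.84% of all tested genes were called higher and 7.86% lower. With library totals in place of TMM these shares were 6.27% and 10.3%. The groups did not overlap for 6 of the 10, against 34.2% of all tested genes, and the median log2 difference was 0.12 over the 10 genes. LMNB1 was at 3.60, 3.23 and 3.06 with siNTRK2 and 2.23, 1.83 and 1.75 normalized CPM with siBDNF, 1.75-fold apart (log2 difference 0.80 ± 0.12, edgeR adjusted p = 3.32e-05). HMGB2 differed by 0.37 ± 0.08 (adjusted p = 0.00169) and HMGA2 by -0.50 ± 0.07 (adjusted p = 4.77e-06). HMGA1 differed by -0.20 ± 0.05 (adjusted p = 0.0128), a call lost without siNTRK2 replicate 2, siBDNF replicate 1 or siBDNF replicate 3 (adjusted p = 0.104, 0.0505 and 0.0800).

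LBR and TMPO, which rose with each siRNA, did not differ between them beyond the test (log2 differences -0.08 ± 0.08 and 0.15 ± 0.08, edgeR adjusted p = 0.536 and 0.240), and neither did LMNB2, LMNA, EMD or HMGB1 (0.14, 0.12, 0.12 and 0.06, adjusted p from 0.0534 to 0.407). Without siNTRK2 replicate 2, LMNB2 and LMNA were called higher with siNTRK2 (0.18 and 0.17, edgeR adjusted p = 0.0191 and 0.0194). For HMGB1, adding the pseudogene counts gave 0.16 and an adjusted p of 0.0254. Of the 15 proliferation genes 11 were higher and 1 lower with siNTRK2 than with siBDNF (median 0.65), and of the 14 heterochromatin genes ASF1B was higher (0.91) and CBX5, the gene of HP1 alpha, lower (-0.31). Within libraries, siNTRK2 minus siBDNF was 0.66 for the log2 ratio of LMNB1 to LMNA, 0.31 for HMGB2 to HMGB1 and -0.31 for HMGA2 to HMGA1, each without overlap and each at the smallest exact permutation p of 0.1. The share of the proliferation genes in the difference of LMNB1 and HMGB2 was not tested.

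**Figure D4:**
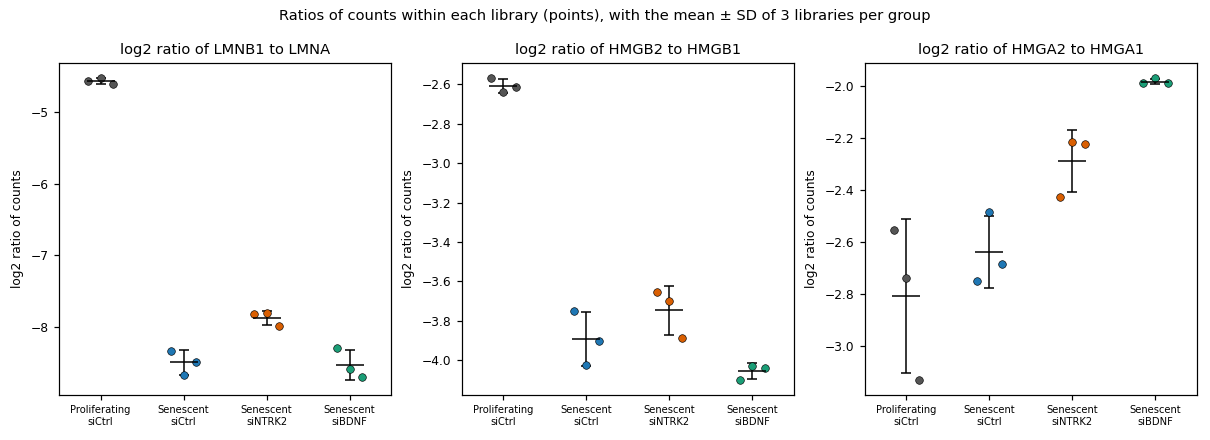
Log2 ratio of the counts of 2 genes within each library (points), with the mean and SD of 3 libraries per group, for LMNB1 to LMNA, HMGB2 to HMGB1 and HMGA2 to HMGA1. LMNB1 to LMNA averages -4.56 in proliferating, -8.50 in siCtrl, -7.87 in siNTRK2 and -8.53 in siBDNF libraries, and HMGA2 to HMGA1 is highest with siBDNF, at -1.98.

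The genes whose pattern over the 12 libraries was most like that of a member were sought among 9843 well-measured genes, by Pearson's r of log2 CPM. For LMNB1 these were HNRNPM, HNRNPD and TENT5C (r = 0.997, 0.996 and 0.996), and 718 genes exceeded 0.95. HMGB2 was most like HNRNPD, RBMX and TCF12 (0.998, 0.998 and 0.997), with 755 genes over 0.95. For both, the points are dominated by the gap between 3 proliferating and 9 senescent libraries. HMGA2 had a rarer pattern, with 51 genes over 0.95, led by ETV1, TMEM167A and LNPEP (0.992, 0.986 and 0.986), which changed by 0.40, 0.32 and 0.41 on the log2 scale with siBDNF and by 0.07, 0.10 and 0.08 with siNTRK2.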

How the data were processed

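In all, 12 libraries of poly(A)-selected RNA from WI-38 cells were analysed, 3 in each of 4 groups taken from the sample labels. The authors trimmed reads with Cutadapt, aligned them to hg19 with STAR 2.4.0j, counted them per gene with featureCounts 1.6.4 and deposited unnormalized counts per gene, which are the unit used here. Demultiplexing used bcl2fastq 2.20.0.422, per the submitters' processing notes. The library kit was stranded, but the strand setting of the counting and the treatment of multimapped reads are not given in the sources used here. Of 57773 identifiers, 55538 were paired with a symbol. Differences between groups were tested with edgeR 4.0.16 in R 4.3.3 (TMM, filterByExpr, quasi-likelihood test, all 12 libraries in 1 fit, Benjamini-Hochberg over 21518 genes). Each SE was derived from the F statistic, as the log2 fold change over the root of F. Ratios were tested with exact two-sided permutation tests over libraries. Positions and exon lengths come from GENCODE on GRCh37, the same build as hg19. The model was also run on counts simulated from the observed mean levels and its own fitted spreads. That run takes the form of the model as given and cannot test it. Alternatives were DESeq2 1.42.0, its size factors, library totals, other filters, a fit of the compared groups alone, a replicate block, a fold change cutoff, added pseudogene counts and leaving out each library. Leaving out libraries for the ratios was added after seeing the data. The libraries held 31567912 to 72328151 counts. Reads carry no molecular identifiers, so counts are not independent molecules. The genes and lists were chosen with earlier results of these data known. Of each list, up to 3 called genes with the largest absolute log2 fold change per comparison could be named; LMNB1, HMGB2 and HMGA2 were matched with their 3 most correlated genes of a mean log2 CPM of at least 3.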

Additional observations from a re-analysis of the deposited data

Results flagged for a closer look

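The effects of siNTRK2 and siBDNF differed for 4 of the 10 genes by the test of the difference itself (edgeR's quasi-likelihood test, 3 libraries against 3). On the log2 scale, siNTRK2 minus siBDNF was 0.80 for LMNB1 (adjusted p = 3.32e-05), 0.37 for HMGB2 (adjusted p = 0.00169), -0.20 for HMGA1 (adjusted p = 0.0128) and -0.50 for HMGA2 (adjusted p = 4.77e-06). For each of the 4 genes the 3 libraries of each group did not overlap, as for 34.2% of all tested genes. Over all tested genes, 8.84% were called higher with siNTRK2 than with siBDNF and 7.86% lower. The call for HMGA1 was not stable, and its edgeR adjusted p reached 0.1045 with a library left out.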

How the results depend on the processing

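Over the 10 genes in 4 comparisons, 303 of 320 values from the other settings and 223 of 240 values with a library left out kept their direction and their side of the threshold, and 13 of the former passed the threshold where the reported value had not. Of these, LMNB2 with siBDNF made 4 (adjusted p = 0.0449 with DESeq2, 0.0332 with at least 10 counts in every library, 0.00595 with library totals only and 0.0231 with only the groups compared), and 6 genes were called with siBDNF under the last 2 of these settings. With the fold change cutoff of 1 added to the adjusted p, 6 genes were called in senescent against proliferating cells and 0 in each of the other 3 comparisons (edgeR without the cutoff, 10, 7, 4 and 4; DESeq2, 10, 8, 5 and 5). Signs turned only for values near 0. For LMNA with siNTRK2 these were -0.0023 with DESeq2, -0.0026 with DESeq2 size factors and -1.01e-05 with the replicate block, and -0.044 to 0.054 with a library left out. For HMGA1 with siBDNF it was 0.026 with library totals only, and -0.073 to 0.0056 with a library left out. The log2 ratio of LMNB1 to LMNA differed between siBDNF and siCtrl by -0.15 to 0.053 with a library left out. With a library left out, 10 genes were called in senescent against proliferating cells each time, 5 to 8 with siNTRK2, 3 to 5 with siBDNF and 3 to 5 between the siRNAs. Libraries that share a replicate number did not deviate together (mean correlation 0.0018, against -9.38e-04 for different numbers), and with the replicate block 10, 7, 4 and 4 genes were called. LMNB1 has 73 to 223 counts in the senescent libraries, which limits the precision of its small differences there.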
